A study of Mus musculus with 617 samples.

Results

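The comparison set 23 single cells labelled E4.5 epiblast against 23 single cells labelled E3.5 inner cell mass (ICM), together 46 of the 617 mouse cells in the series. Membership followed the labels and the form of the sample titles, and no measured value was used. All 46 cells came from hybrid embryos (mother C57BL/6J, father CAST/EiJ), carried no labelled sex, and were sequenced by SMART-seq2, a full-length protocol for single cells, with Tn5 tagmentation. No label names an embryo, a mutation or a treatment for these cells. Titles of both stages begin with the same word for a late blastocyst. Titles at E3.5 also hold a pair of index numbers and those at E4.5 do not, so anything that went with that difference cannot be told apart from the stage. Each title has a leading number that the labels do not explain. It took 4 values at E3.5 (4 to 7 cells each) and 7 values at E4.5 (2 to 7 cells each), and served only to describe spread.

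A mouse blastocyst has an outer epithelium, the trophectoderm, which builds the placenta, and an inner cell mass. Cells of the inner cell mass sort into the epiblast, the source of the fetus, marked by Nanog and Sox2, and the primitive endoderm, which lines the yolk sac and is marked by Gata6, then Sox17 and Gata4. Trophectoderm identity depends on Cdx2 and Gata3, with the simple keratins Krt8 and Krt18 as its intermediate filaments. Over the day between both stages the epiblast takes on the naive pluripotent state from which embryonic stem cells are derived.

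The marker genes went against the epiblast label in many cells. Cdx2, Gata3 and Krt8 were all at 10 FPKM or more (fragments per kilobase of transcript, scaled to the library's fragments) in 15 of 23 E4.5 cells and in 10 of 23 E3.5 cells, referred to here as marker-positive cells. The other cells numbered 8 at E4.5 and 13 at E3.5. Every one of the 46 cells also had Pou5f1, Nanog and Sox2 at 1 FPKM or more. The rule was set after these values were seen. Near its limit, the lowest of the 3 markers lay between 5 and 20 FPKM in 4 cells at E3.5 and in 0 at E4.5. Marker-positive cells occurred in all 4 title numbers at E3.5, next to other cells. At E4.5 they made up every cell of numbers 5, 7, 8 and 10, no cell of numbers 4 and 6, and 3 of the 7 cells of number 9. The groups are therefore called by their stage labels only, and calls that were lost without or within the marker-positive cells are given with the value there. Cdx2, Gata3 and Krt8 set this split, so their values in each set, and sums and lists that hold them, are in part fixed by it.

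**Figure D1:**
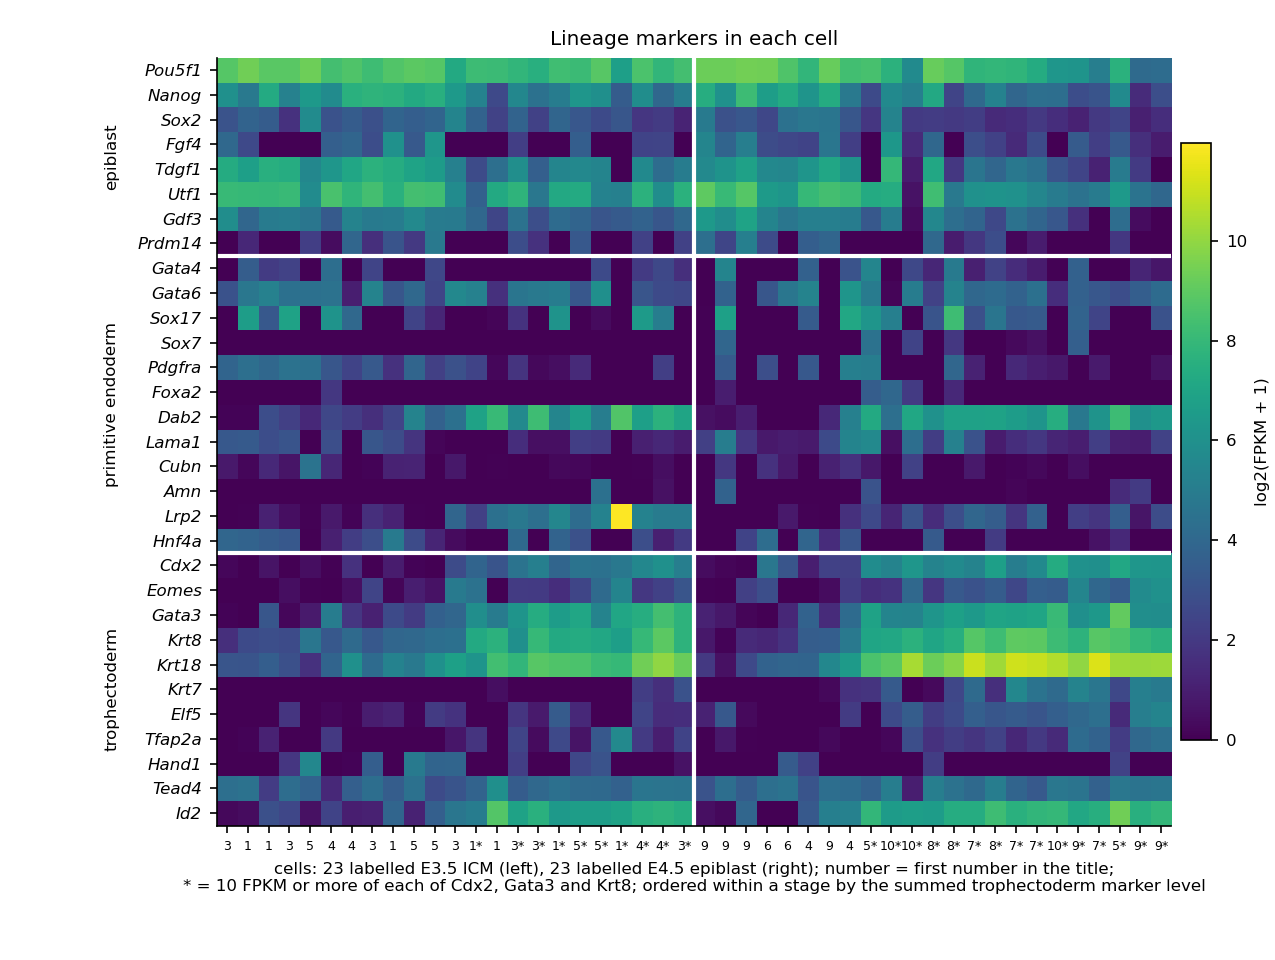
Heat map of log2(FPKM + 1) for 8 epiblast, 12 primitive endoderm and 11 trophectoderm markers (rows) in 46 cells (columns), with stages separated by a white line and cells ordered within a stage by the summed trophectoderm marker level. The 10 marker-positive cells at E3.5 and the 15 at E4.5, marked by asterisks, lie to the right within each stage, and Pou5f1 is present in all of them.

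Pou5f1, the pluripotency factor Oct4, ranged from 108 to 655 FPKM at E3.5 with a median of 331, and from 16.7 to 687 FPKM at E4.5 with a median of 230. It was at 1 FPKM or more in all 23 cells of each stage (exact Clopper-Pearson 95% interval 85.2% to 100%, which covers counting error over cells only). Its lowest cells were marker-positive E4.5 cells, while the 8 other E4.5 cells held 230 to 687 FPKM. Nanog, a homeobox factor of the epiblast, had a median of 56.9 FPKM at E3.5 (5.24 to 221) and 34.7 at E4.5 (1.76 to 289). Within the other cells its median was 84.5 FPKM at E3.5 and 130 at E4.5, and within the marker-positive cells 35.5 and 16.01. Sox2, the partner of Oct4, had medians of 8.35 and 3.40 FPKM over all cells, and 10.2 and 14.6 over the other cells. The stages overlapped in all of these genes.

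Cdx2, the homeobox factor of the trophectoderm, was at 1 FPKM or more in 13 of 23 E3.5 cells (56.5%, interval 34.5% to 76.8%) and 20 of 23 E4.5 cells (87.0%, interval 66.4% to 97.2%). Its level ran from 0 to 62.8 FPKM at E3.5, median 5.73, and from 0.0501 to 163 at E4.5, median 40.3. An E4.5 cell was above an E3.5 cell in 77.9% of the 529 pairs of cells. Even among the 8 E4.5 cells outside the rule, 1 held 26.1 FPKM of Cdx2. Krt18 had a median of 71.4 FPKM at E3.5 (2.30 to 1010) and 889 at E4.5 (0.454 to 2556). Krt8, its binding partner, had medians of 24.8 and 178 FPKM. Gata3 had medians of 30.9 and 58.1 FPKM.

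Gata4 and Sox17, transcription factors of the primitive endoderm, were found in part of the cells of each stage. Gata4 was at 1 FPKM or more in 10 of 23 E3.5 cells (43.5%, interval 23.2% to 65.5%) and 12 of 23 E4.5 cells (52.2%, interval 30.6% to 73.2%), with highest values of 19.2 and 42.1 FPKM. Sox17 reached 1 FPKM in 11 of 23 (47.8%, interval 26.8% to 69.4%) and 14 of 23 cells (60.9%, interval 38.5% to 80.3%), with highest values of 116 and 304 FPKM. These shares lie within each other's intervals. Sox17 at 10 FPKM or more stood beside Nanog at 10 FPKM or more in all 7 such cells at E3.5 and in 4 of 7 at E4.5. Nanog was at 10 FPKM or more in 22 of 23 E3.5 cells and 17 of 23 E4.5 cells. The counts beside Sox17 are therefore not read as a link between both genes. Gata6, an early endoderm factor, was at 1 FPKM or more in 22 of 23 and 19 of 23 cells. Pdgfra, the endoderm receptor for platelet-derived growth factor, was at that level in 16 of 23 E3.5 cells (69.6%, interval 47.1% to 86.8%) and 8 of 23 E4.5 cells (34.8%, interval 16.4% to 57.3%).

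Some markers of a lineage varied together from cell to cell. Cdx2 and Gata3 had a Spearman rho of 0.89 over the 23 E3.5 cells and 0.75 over the 23 E4.5 cells, Krt8 and Krt18 of 0.90 and 0.97, and Gata4 and Sox17 of 0.56 and 0.70. Sox17 and Gata6, also both endoderm factors, had -0.045 at E3.5 and 0.50 at E4.5. The summed log2(FPKM + 1) of 11 trophectoderm markers and that of 8 epiblast markers had a rho of -0.55 at E3.5 and -0.78 at E4.5. The endoderm sum against the epiblast sum gave -0.22 and -0.39. These are descriptions over cells of differing depth, and the share of depth in them was not tested. In marker-positive E4.5 cells the trophectoderm sum ran from 43.3 to 63.3, and in the other E4.5 cells from 8.97 to 33.1. At E3.5 the ranges were 38.4 to 52.5 and 9.68 to 39.3. The sum holds the 3 genes of the rule, so this separation is in part set by it.

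**Figure D2:**
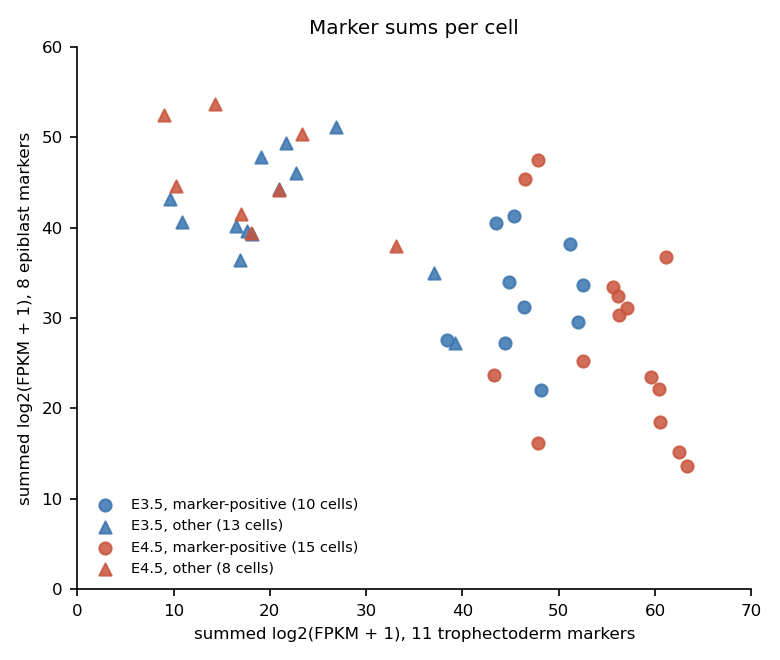
Summed log2(FPKM + 1) of 8 epiblast markers against that of 11 trophectoderm markers in each of the 46 cells, coloured by stage, with circles for marker-positive cells and triangles for the others. Marker-positive E4.5 cells reach a trophectoderm sum of 63.3 and epiblast sums down to 13.6, while the 8 other E4.5 cells stay at or below a trophectoderm sum of 33.1.

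Depth and composition differed between cells. From the step size of low FPKM values, cells at E3.5 held an implied 51644 to 14158900 fragments (median 7098860), and those at E4.5 1172060 to 17020500 (median 3517620). A single fragment on a transcript of 2000 bases was worth a median of 0.0704 FPKM at E3.5 and 0.142 at E4.5. Genes at 1 FPKM or more per cell numbered a median of 8122 (3923 to 9770) at E3.5 and 8754 (6934 to 10126) at E4.5. Genes of the mitochondrial genome took a median of 33.4% of the FPKM sum at E3.5 and 16.4% at E4.5, and genes with under 200 exon bases took 45.2% and 33.7%. These are shares of FPKM and not of reads, and they overlap, since mitochondrial tRNA genes count in both. The tRNA gene mt-Tq, of 71 bases, alone had medians of 85366 and 21062 FPKM. The shallowest E3.5 cell, of title number 1, had an FPKM sum of 7897580 against a stage median of 612768 and supplied the extreme values of several genes, so values were compared as logs and ranks. The part of depth and composition in the differences that follow was not tested.

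Across 11028 genes at 1 FPKM or more in at least 10 of the 46 cells, the difference of mean log2(FPKM + 1), E4.5 minus E3.5, was 1 or more for 647 genes (5.87%) and -1 or less for 516 (4.68%). Such genes are called higher and lower, and the counts in each gene list below are read beside these shares. No test was made, since each stage is 1 sample and its cells are not replicates. The median difference was -0.01. Of the called genes 55.6% were higher. That share became 77.6% (1253 higher, 361 lower) with each cell rescaled to an FPKM sum of 1000000, a step that moved the median difference to 0.20, and 76.7% (910 higher, 277 lower) with each cell rescaled to the same upper quartile, which moved it to 0.17. Means per title number did not overlap between stages for 100 genes higher at E4.5 (0.907%) and 89 lower (0.807%), of which 67 and 54 also passed the rule of size. Without the marker-positive cells 802 genes were higher (7.27%) and 800 lower (7.25%), and within them 907 (8.22%) and 909 (8.24%). Passing in all cells and in both sets were 221 genes higher (2%) and 202 lower (1.83%).

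**Figure D3:**
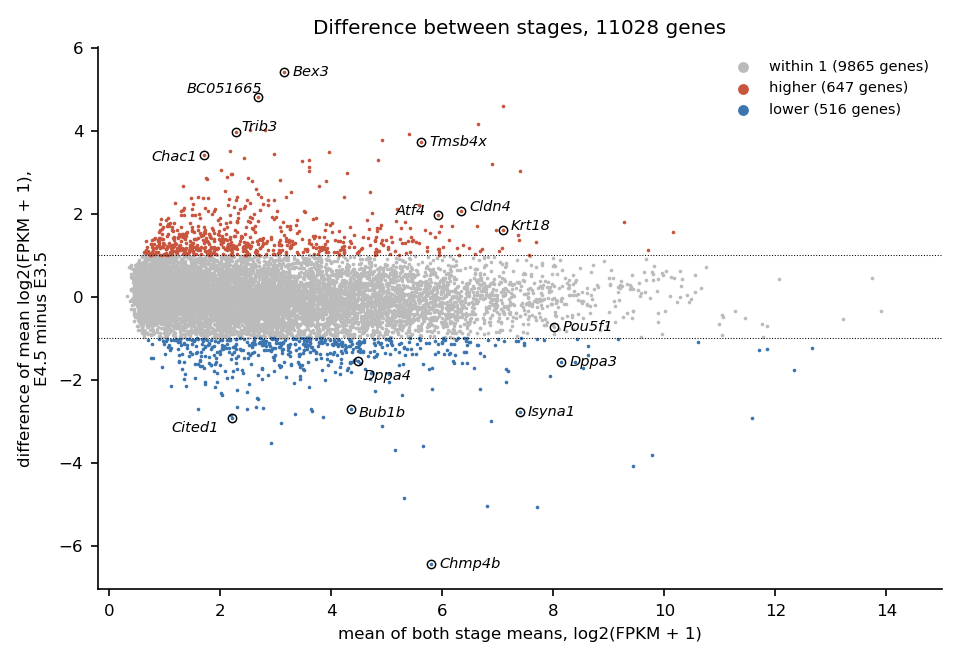
Difference of mean log2(FPKM + 1), E4.5 minus E3.5, against the mean of both stage means for 11028 genes. Red points are the 647 higher genes, blue points the 516 lower genes, dotted lines mark differences of 1 and -1, and named genes are circled, with Chmp4b at -6.46 and Bex3 at 5.42.

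Trophectoderm markers made up the lineage list with the most higher members. Of 11 markers tested, 5 were higher and 0 lower (median difference 0.93, against -0.01 over all genes), namely Cdx2 (2.03), Krt7 (1.98), Krt18 (1.60), Elf5 (1.48) and Id2 (1.31). Krt7, a simple keratin, was at 1 FPKM or more in 3 E3.5 and 14 E4.5 cells. Elf5, an ETS factor of trophoblast stem cells, was at that level in 10 E3.5 and 17 E4.5 cells. Of the 8 markers outside the rule that split the cells, 4 were higher and 0 lower over all cells (median 1.12), 0 higher and 2 lower without the marker-positive cells (median 0.0087), and 3 higher and 0 lower within them (median 0.65). Krt7 differed by 0.21 without these cells, Elf5 by 0.22, Id2 by -0.25 and Krt18 by -1.01. Leaving out E4.5 number 7 alone gave 0.93 for Krt18 and 0.92 for Id2. Krt8 differed by 0.59 over all cells. Hand1, of the same list, went the other way, by -0.95 over all cells (9 E3.5 and 4 E4.5 cells at 1 FPKM or more). It differed by -1.11 without the marker-positive cells and by -0.54 within them. Within marker-positive cells Krt7 differed by 2.70, Elf5 by 1.92, Krt18 by 1.70 and Id2 by 0.69. Reads of keratin pseudogenes close in sequence to Krt8 and Krt18 cannot be told apart here.

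The epiblast list held 1 lower gene of 8, Tdgf1 (-1.35), the Nodal co-receptor Cripto, and 0 higher ones (median -0.66). Leaving out the marker-positive cells turned the median to 0.34, with 0 of 8 lower (Tdgf1 -0.47) and 2 higher. These were Prdm14 (1.27), a zinc finger regulator of naive pluripotency, and Fgf4 (1.12), the ligand that drives endoderm formation. Within marker-positive cells Pou5f1 (-1.08), Nanog (-1.02) and Tdgf1 (-1.06) were lower and Fgf4 (1.11) was higher. Pou5f1 differed by -0.74 over all cells and by 0.28 without the marker-positive ones. Of 9 primitive endoderm markers tested, 0 were higher and 2 lower over all cells (median -0.05, and 0.01 after upper quartile rescaling). These were Lrp2 (-1.27), the endocytic receptor megalin, and Hnf4a (-1.04), a nuclear receptor. Lrp2 reached 3963 FPKM in the shallowest E3.5 cell and differed by -0.86 without it. Hnf4a differed by -0.86 without E4.5 number 9. Neither passed without the marker-positive cells (Lrp2 -0.74, Hnf4a -0.39), where the 2 lower genes were Dab2 (-1.78), an endocytic adaptor, and Pdgfra (-1.32). Within them Lrp2 (-2.99) and Hnf4a (-1.19) were lower, and Sox17 (1.10) and the laminin gene Lama1 (1.27) were higher. Sox17 differed by 0.56 over all cells and by -0.19 without the marker-positive ones. Found in too few cells to be tested were Sox7 (0 E3.5 and 5 E4.5 cells at 1 FPKM or more), Foxa2 (1 and 4) and Amn (1 and 4).

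Pluripotency factors showed few differences of size, beside 5.87% higher and 4.68% lower over all genes. Among the core factors Tdgf1 was lower. Among 10 naive factors 1 was higher, Nr0b1 (1.35), the orphan receptor Dax1, and 1 lower, Esrrb (-1.21), an estrogen-related receptor. Nr0b1 was at 1 FPKM or more in 2 E3.5 and 8 E4.5 cells, up to 9.99 and 92.1 FPKM. Esrrb had a median of 16.8 FPKM at E3.5 (1.15 to 35.1) and 5.42 at E4.5 (0 to 63.02). Without the marker-positive cells Esrrb differed by 0.06 and Nr0b1 by 2.61, and within them Nr0b1 by 0.73. Without E4.5 number 9 Nr0b1 (0.95) fell short of the rule, and without E4.5 number 7 Esrrb did (-0.94). Tfcp2l1, a naive factor that binds with Esrrb, differed by -0.97, just short of the rule, with medians of 43.1 and 22.6 FPKM. Of 12 factors of the later, formative state 3 were tested and 0 called. The ETS factor Etv5 was at 1 FPKM or more in 21 E3.5 and 20 E4.5 cells (medians 26.1 and 12.4 FPKM), Otx2 in 13 and 10 cells, and Tcf15 in 9 and 11. Fgf5 was listed at 0 in all 46 cells. Of the 2-cell-like genes 0 of 6 were tested.

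The Dppa genes, a group by name known from early embryos and germ cells, split by member. Dppa3 (Stella) was lower by -1.57, with a median of 530 FPKM at E3.5 (37.2 to 825) and 240 at E4.5 (5.32 to 725). Dppa4 went from a median of 39.6 FPKM (15.3 to 76.3) to 14.0 (0.427 to 36.1), a difference of -1.56. Means per title number did not overlap for Dppa4. Its partner Dppa2 differed by -1.46, with medians of 45.8 and 14.4 FPKM. Dppa5a, an RNA-binding protein among the most abundant transcripts here, had medians of 1315 and 1740 FPKM (difference 0.51). So 3 of 5 were lower over all cells and also within the marker-positive cells. Without the marker-positive cells 3 were lower as well, but these were Dppa1 (-1.35), Dppa2 (-1.03) and Dppa4 (just past -1), with Dppa3 at -0.75. Dppa3 also fell short without the cells of E4.5 number 9 (-0.80). After rescaling to a sum of 1000000, 3 were lower and 1 higher.

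Signalling genes differed in single members, and their counts stand beside 5.87% higher and 4.68% lower over all genes. In lists this short they are not read as results about the pathways. In the FGF and PDGF list 1 of 7 tested was higher, the ligand Pdgfa (1.43, medians 9.48 and 34.98 FPKM), whose receptor Pdgfra differed by -0.88. Fgf4 differed by 0.80, Fgfr1 by 0.12 and Fgfr2 by 0.83. Of 8 tested ERK targets 1 was higher, the phosphatase Dusp6 (1.26). Both calls were lost without the marker-positive cells, where Pdgfa differed by 0.47 and Dusp6 by 0.34. In the LIF and STAT3 list 2 of 7 were lower, Stat3 (-1.12, medians 72.4 and 36.7 FPKM) and its feedback inhibitor Socs3 (-1.13). Stat3 differed by -1.48 without the marker-positive cells and by -1.13 within them, and Socs3 by -2.24 and 0.12. Without E4.5 number 9 Stat3 differed by -0.87, after rescaling to a sum of 1000000 by -0.77, and Socs3 by -0.72 without E3.5 number 3. Nodal itself was at 1 FPKM or more in 0 of 23 E3.5 cells (interval 0 to 14.8%) and in 4 of 23 E4.5 cells, too few to be tested.

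Hippo genes, which set inner against outer fate through Yap1 and Tead4, were called in both directions. Of 12 tested, 2 were higher and 2 lower, beside 5.87% and 4.68% over all genes. Higher were Amotl2 (1.79) and the Yap target Ccn1 (1.69), and lower were Wwtr1 (-1.40), the Yap1 paralog Taz, and Amot (-1.26), the scaffold angiomotin. Ccn1 differed by 0.98 without the marker-positive cells. The list's median was -0.10 over 12 genes, and 0.11 after rescaling to a sum of 1000000. Amot reached 4110 FPKM in the shallowest E3.5 cell and differed by -0.83 without it. Among 14 adhesion genes tested only the tight junction protein Cldn4 passed the rule (2.06). It had a median of 52.5 FPKM at E3.5 (0.0420 to 350) and 239 at E4.5 (4.47 to 738), and it differed by 1.36 without the marker-positive cells and by 1.19 within them. Cdh1, the epithelial cadherin, differed by 0.43. None of 11 basement membrane genes was called (median 0.49). After rescaling to a sum of 1000000, 4 were higher and 0 lower (median 0.80), within the marker-positive cells 3 were higher, and without them 1.

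Enzymes of DNA methylation were called in both directions over all cells. The list held 2 higher and 2 lower of 9 tested, beside 5.87% and 4.68% over all genes. The de novo methyltransferases Dnmt3a (1.52, medians 8.23 and 22.7 FPKM) and Dnmt3b (1.02, medians 12.8 and 22.4) were higher. Uhrf1 (-1.04), which guides maintenance methylation, and Tet1 (-1.05), which oxidises methylcytosine, were lower. Without the marker-positive cells 0 of 9 passed the rule, with Tet1 at 0.21, Uhrf1 at -0.37, Dnmt3a at 0.81 and Dnmt3b at 0.84. Within them Dnmt3b fell just short of 1. After rescaling to a sum of 1000000, 2 were higher and 0 lower. Dnmt3b differed by 0.81 without E3.5 number 3, Tet1 by -0.76 without E3.5 number 1 and Uhrf1 by -0.68 without E4.5 number 10. Of 6 tested genes of Polycomb repressive complex 2, which methylates histone H3, 0 were called over all cells and 3 were lower within the marker-positive cells.

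Genes of the amino acid response stood among the largest differences. In this response a block of general translation raises synthesis of Atf4, a transcription factor that turns on genes of amino acid synthesis, transport and tRNA charging. In the stress list 3 of 6 tested were higher, Trib3 (3.96), Ddit3 (3.12) and Atf4 (1.98), and 0 lower, with 3 also within the marker-positive cells and 3 without them. The immediate early genes Jun, Junb and Ier2 differed by 0.32, 0.30 and -0.15, and Hspa1a and Hspa1b, near-identical heat shock genes, were too low to be tested. Atf4 had a median of 35.5 FPKM at E3.5 (0 to 88.4) and 128 at E4.5 (45.5 to 298). An E4.5 cell was above an E3.5 cell in 96.2% of pairs. Trib3, a pseudokinase that feeds back on Atf4, was at 1 FPKM or more in 2 of 23 E3.5 cells (8.70%, interval 1.07% to 28.04%) and 21 of 23 E4.5 cells (91.3%, interval 71.96% to 98.9%), with medians of 0 and 26.3 FPKM. Both E4.5 cells without Trib3 were those of title number 6. Ddit3 (Chop) had medians of 4.59 and 46.5 FPKM.

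Chac1, which degrades glutathione, was listed at 0 in all 23 E3.5 cells and reached 1 FPKM in 20 of 23 E4.5 cells (87.0%, interval 66.4% to 97.2%), with a median of 15.8 and a highest value of 61.04 FPKM. Its means per title number did not overlap. A wider list of 26 genes of this response was put together after the values were seen, so its count describes the data and supports nothing. Of 23 tested, 19 were higher and 0 lower (median 1.98). Without the marker-positive cells 16 were higher and 0 lower, and within them 18 were higher and 1 lower. The shares of higher genes among all 11028 were 5.87% over all cells, 7.27% without the marker-positive cells and 8.22% within them. The list held Mthfd2 (3.26), a mitochondrial folate enzyme, the proline synthesis enzyme Aldh18a1 (2.80), the serine phosphatase Psph (2.39) and asparagine synthetase Asns (1.61). Among its transporter subunits were Slc1a5 (2.60), Slc7a3 (2.26) and Slc3a2 (1.61, and 0.87 without the marker-positive cells). Phgdh (-0.92) and Psat1 (0.32), serine synthesis enzymes ahead of Psph, were not called. Means per title number did not overlap for 5 genes of the list, all higher at E4.5, beside 0.907% of all genes tested. Of 12 endoplasmic reticulum stress genes, also listed after the values were seen, 4 were higher, Herpud1 (3.45), Hspa5 (1.52), Pdia6 (1.36) and Hsp90b1 (1.05, and 0.51 without the marker-positive cells).

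Promoters of these genes are shown because the response is known to act through a composite element for Atf4 and its C/EBP partners. The letters TGATGNAA were searched on both strands of RefSeq promoters (GRCm38.p6, 250 bases before to 50 after each start). RefSeq gave 25 promoters for 22 of the 26 listed genes, and 8 (32%) held a match, against 1304 of 32851 promoters of all genes (3.97%). The genes were Trib3, Chac1, Nupr1, Vldlr, Asns, Pycr1, Slc7a11 and Slc1a4, of which Vldlr and Slc7a11 were too low to be tested. The other listed genes with a promoter, among them Atf4, Ddit3, Mthfd2 and Psph, held no match. This says only that these letters are not there. The list was made of genes of this response, and the letters are its known element. The difference in shares was therefore in part fixed beforehand and supports nothing. A match is a description of the sequence. The 250 bases before the start are given 5′ to 3′ for 4 higher genes, on the strand of the gene, with the match in capitals. They are chr2:119350992-119351241 (plus strand) for Chac1, chr7:126625471-126625720 (minus) for Nupr1, chr6:7693210-7693459 (minus) for Asns and chr11:120643749-120643998 (minus) for Pycr1.
Chac1: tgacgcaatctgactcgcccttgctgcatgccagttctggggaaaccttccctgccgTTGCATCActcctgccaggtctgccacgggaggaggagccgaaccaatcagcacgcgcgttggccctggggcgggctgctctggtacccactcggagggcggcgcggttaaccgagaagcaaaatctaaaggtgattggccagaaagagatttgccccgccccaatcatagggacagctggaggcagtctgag
Nupr1: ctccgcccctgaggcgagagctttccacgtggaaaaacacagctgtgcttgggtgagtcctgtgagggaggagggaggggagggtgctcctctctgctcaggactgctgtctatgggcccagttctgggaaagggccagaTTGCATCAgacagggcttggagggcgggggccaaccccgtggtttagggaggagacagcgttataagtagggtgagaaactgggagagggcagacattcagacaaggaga
Asns: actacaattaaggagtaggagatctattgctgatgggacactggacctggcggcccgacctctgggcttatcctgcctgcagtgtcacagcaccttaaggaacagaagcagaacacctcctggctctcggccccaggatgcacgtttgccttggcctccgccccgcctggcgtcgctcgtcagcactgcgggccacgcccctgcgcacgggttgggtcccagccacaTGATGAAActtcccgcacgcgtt
Pycr1: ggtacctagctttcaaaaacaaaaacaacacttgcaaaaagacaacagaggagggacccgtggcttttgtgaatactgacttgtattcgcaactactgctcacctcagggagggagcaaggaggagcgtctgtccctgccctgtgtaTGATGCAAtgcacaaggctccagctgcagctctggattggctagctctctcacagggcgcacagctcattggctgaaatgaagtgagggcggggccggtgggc
In Chac1 and Nupr1 the match lies on the opposite strand, beginning at positions -193 and -110 from the start, and in Asns and Pycr1 on the strand of the gene, at -23 and -103. Nupr1, a small stress-induced chromatin protein, was at 1 FPKM or more in 4 E3.5 and 18 E4.5 cells (medians 0 and 25.1 FPKM, difference 3.51). Asns had a median of 62.2 FPKM at E3.5 (10.4 to 618) and 199 at E4.5 (23.9 to 921). Pycr1, the last enzyme of proline synthesis, had medians of 0.0894 and 14.3 FPKM (difference 1.83).

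The single largest difference was that of Chmp4b, a subunit of the ESCRT-III membrane scission complex. It lay between 80.3 and 824125 FPKM at E3.5, with a median of 311, and between 0 and 46.97 at E4.5, with a median of 7.57. Every E3.5 cell was above every E4.5 cell, a difference of -6.46 over all cells, -7.20 without and -6.19 within the marker-positive ones. The highest value was that of the shallowest cell, which had 4662 genes at 1 FPKM or more. The next highest, 3890, 2663 and 1396 FPKM, were in E3.5 cells with 3923, 6590 and 7370 such genes. The median over E3.5 cells was 8122 genes. The part of library content in the Chmp4b difference was not tested. Isyna1, inositol-3-phosphate synthase, went from a median of 427 FPKM (213 to 1470) to 71.04 (10.2 to 365), a difference of -2.79, and an E4.5 cell was above an E3.5 cell in 1.70% of pairs. Uchl1, a deubiquitinating enzyme, and Bub1b, a spindle checkpoint kinase, were lower by -2.85 and -2.71. Means per title number did not overlap for Chmp4b, Isyna1, Uchl1 and Bub1b.

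**Figure D4:**
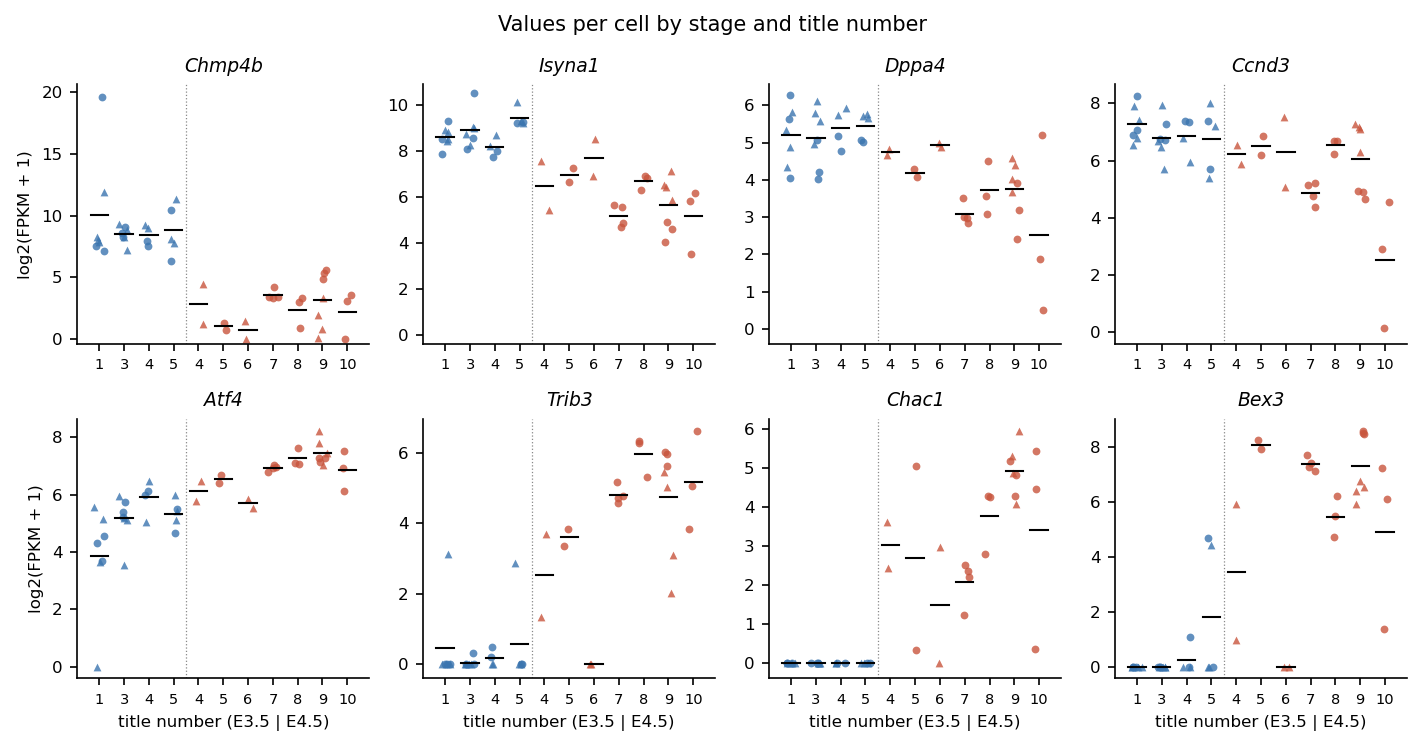
log2(FPKM + 1) of 8 genes in each cell by stage and title number, with blue for E3.5, red for E4.5, circles for marker-positive cells, triangles for others and black bars for the mean of a number. Chmp4b separates all cells of both stages, Chac1 is at 0 in all E3.5 cells, and both cells of E4.5 number 6 have Trib3 and Bex3 at 0.

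The other lower genes of this size were found both with and without the marker-positive cells. They were the transcriptional co-regulator Cited1 (-2.93), the F-box protein gene Fbxl20 (-2.91), Gulo (-2.82), which makes the last step of vitamin C synthesis, Bhmt (-2.66), which remethylates homocysteine, the sialic acid enzyme Npl (-2.37) and the tubulin regulator Stmn3 (-2.31). Cited1 was at 1 FPKM or more in 19 E3.5 and 6 E4.5 cells, with medians of 16.9 and 0 FPKM. Gulo had medians of 30.3 and 1.99 FPKM. Bhmt had medians of 18.3 and 0.512 FPKM. In each of these 6 genes the highest E4.5 cell was above the E3.5 median.

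Among the higher genes Bex3, an X-linked adaptor protein gene, had the largest difference (5.42). It was at 1 FPKM or more in 3 of 23 E3.5 cells (13.0%, interval 2.78% to 33.6%) and 20 of 23 E4.5 cells (87.0%), with medians of 0 and 91.6 FPKM. Tceal9 (4.02), another X-linked gene, had medians of 0 and 54.2 FPKM, and Tmsb4x (3.72), which encodes the actin-binding thymosin beta 4, medians of 15.7 and 318 FPKM. Bex3 differed by 3.73 without the marker-positive cells and by 6.24 within them. BC051665, a cathepsin-like gene in a family of similar genes whose reads may be shared, differed by 4.80. It was at a median of 312 FPKM in marker-positive E4.5 cells and 0.299 in the others, and the difference was 0.43 without the marker-positive cells. Fam213b, a peroxiredoxin-like gene, differed by 3.48.

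Over all 11028 genes 5.87% were higher and 4.68% lower, and housekeeping lists are read beside these shares. In glycolysis 1 of 18 tested was higher, the phosphofructokinase Pfkp (1.36, and 0.60 without E4.5 number 9), and 0 lower (median 0.24), close to the share over all genes. After rescaling to a sum of 1000000, 4 were higher and 1 lower. None of 12 nuclear genes of oxidative phosphorylation was called (median -0.03, and 0.33 after rescaling to a sum of 1000000). Of 13 protein genes of the mitochondrial genome 6 were listed at 0 in all 46 cells, which for genes that every cell uses can mark a failed estimate, and 0 of the other 7 was called. Of 8 mitosis genes 2 were lower, the kinases Cdk1 (-1.07, medians 245 and 111 FPKM) and Bub1 (-1.11). After rescaling to a sum of 1000000 neither passed, and without the shallowest E3.5 cell Bub1 differed by -0.76. Bub1 differed by -0.88 without the marker-positive cells, and Cdk1 by -0.72 within them. Ccnd3, cyclin D3, was lower (-1.41, medians 119 and 57.98 FPKM), with means per title number that did not overlap. It differed by -0.22 without the marker-positive cells, by -2.13 within them and by -0.96 without E4.5 number 10. In the Bcl2 family 1 of 8 tested was lower, Pmaip1 (-1.85), the pro-apoptotic protein Noxa, at medians of 8.05 and 0.868 FPKM, again with no overlap of title numbers.

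Imprinted genes, expressed from a single parental copy, held 2 higher and 0 lower of 8 tested, beside 5.87% and 4.68% over all genes. H19, a maternally expressed noncoding RNA, was listed at 0 in all 23 E3.5 cells (interval 0 to 14.8%) and reached 1 FPKM in 14 of 23 E4.5 cells (60.9%, interval 38.5% to 80.3%), up to 356 FPKM. Its neighbour Igf2, a paternally expressed growth factor, was at 1 FPKM or more in 2 and 14 cells (difference 1.77, and 0.97 without the marker-positive cells). H19 stood at 1 FPKM or more in 11 of the 15 marker-positive E4.5 cells and 3 of the 8 others. Snrpn, Peg3 and Igf2r differed by -0.74, -0.62 and -0.61. FPKM of this table are not split by allele.

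Xist, the RNA that coats the inactive X chromosome, and the Y-linked genes Eif2s3y and Ddx3y differed between title numbers, with exceptions. Xist was between 5.26 and 148 FPKM in the 5 cells of E3.5 number 5, between 28.1 and 221 in the 3 cells of E4.5 number 10, and 4.36 and 33.7 in the 2 cells of E4.5 number 4. In those numbers Eif2s3y was at most 0.244 FPKM. In the other numbers Eif2s3y was at 9.94 FPKM or more in every cell but 1, an E3.5 cell of number 1 with neither gene. Both cells of E4.5 number 6 held Xist (7.65 and 31.01 FPKM) together with Eif2s3y (9.94 and 10.5 FPKM). Another 5 cells held both genes, 1 each of E3.5 numbers 1 and 3 (Xist 2.07 and 3.07 FPKM), 1 of E4.5 number 7 (4.64) and 2 of E4.5 number 9 (1.75 and 2.52). Over all cells Xist differed by 0.60 and Eif2s3y by 0.30.

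**Figure D5:**
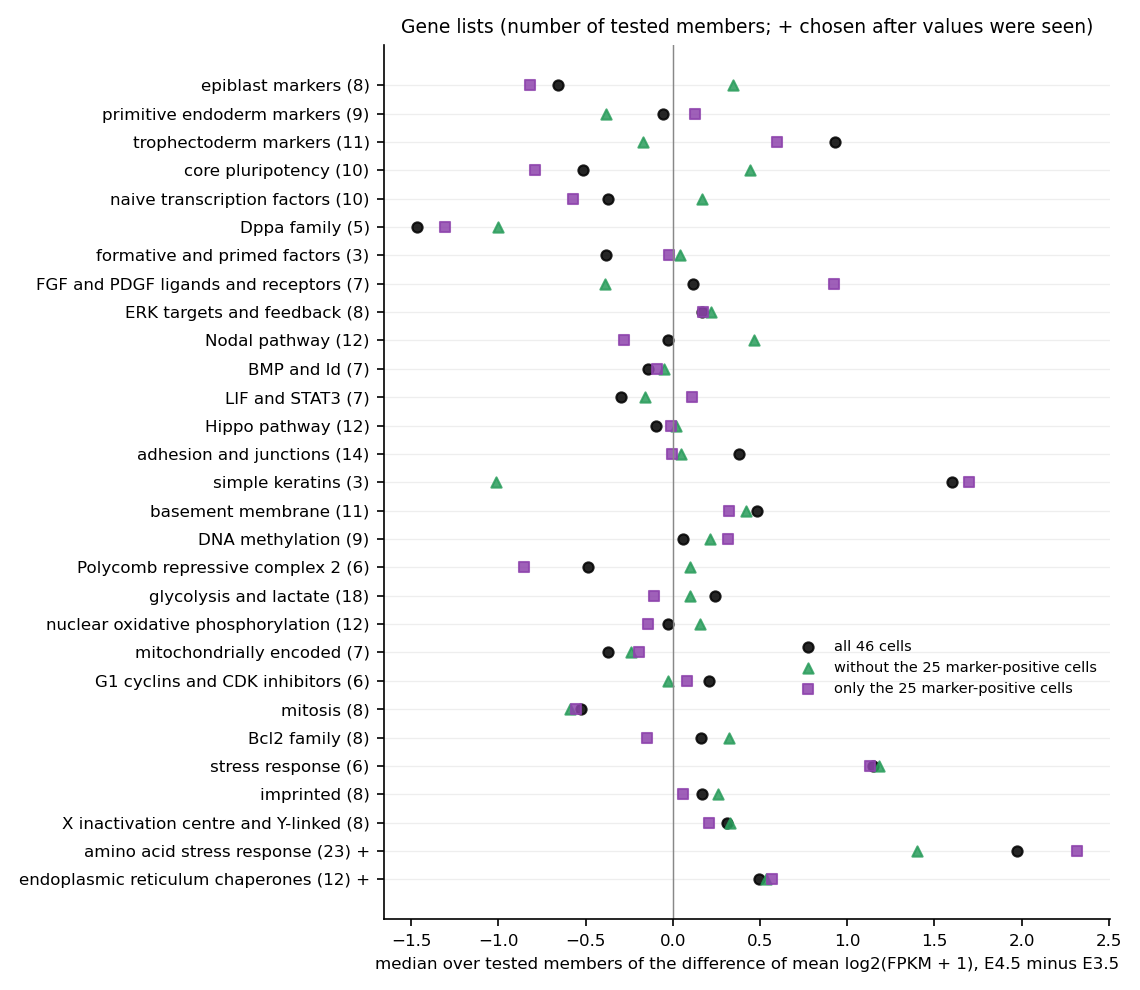
Median over the tested members of each gene list of the difference of mean log2(FPKM + 1), E4.5 minus E3.5, in all 46 cells (circles), without the 25 marker-positive cells (triangles) and within them (squares). The epiblast list lies at -0.66 over all cells and 0.34 without the marker-positive cells, whereas the Dppa list lies at -1 or below and the stress list above 1 in all 3 sets.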

How the data were processed

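Single-cell RNA libraries were made by SMART-seq2 and Tn5 tagmentation, per the labels' protocols. The authors deposited FPKM per gene and cell, and the submitters' processing notes name STAR 2.4.1, Cufflinks, Cuffnorm 2.2.1 and mm10, with no role or order. Cell filters, strandedness and the fragments behind the scaling are not given in the sources used here. In 356 values an exponent written with a low line was read as negative (largest 9.7552e-05). Of 43628 gene IDs, 42462 matched GENCODE vM21, the source of symbols, chromosomes and lengths.

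Each stage was 1 sample, so no p-value was computed. Genes at 1 FPKM or more in at least 10 of 46 cells were compared by the difference of mean log2(FPKM + 1), E4.5 minus E3.5, which understates changes of low genes, and called at 1 in size. Shares carry exact Clopper-Pearson 95% intervals for counting error only. Depth was implied from FPKM steps of 3060 genes with 1 transcript of 2000 to 6000 bases (a median of 83.2% of low values at E3.5 and 81.2% at E4.5 were whole within 0.1). The highest Pearson r between 2 cells was 0.905, so no cell was taken as deposited more than once.

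The comparison and the gene lists were chosen with earlier results of these data known. Named genes were Pou5f1, Gata4, Sox17 and Cdx2, list members past the rule of size or defining a list, and the 10 largest differences in each direction among protein-coding genes that reached 1 FPKM in at least 50% of the higher stage's cells. A result for 1 gene is not reported here. The marker-positive split, the removal of the shallowest cell, the rank rule and 2 lists were added after the data were seen. Python 3.11.15 with numpy 2.4.6, pandas 2.3.3, scipy 1.17.1 and matplotlib 3.10.9 was used, and the measures were tested on simulated data.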

Additional observations from a re-analysis of the deposited data

How the results depend on the processing

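The numbers of genes called depended on the scale and on the cells used. Against 647 higher and 516 lower genes, a pseudocount of 0.1 gave 1784 and 1174, the median of log2 values over cells 1022 and 805, and rescaling to a sum of 1000000 gave 1253 higher genes. Rescaling to the same upper quartile gave 277 lower genes, the log2 of the mean FPKM 1061 lower ones (817 higher), and a rank rule of 75% of cell pairs 393 higher ones (463 lower). Leaving out the marker-positive cells gave 800 lower genes and keeping only these 909. Leaving out each title number in turn gave 531 to 822 higher and 440 to 735 lower genes, the fewest higher and most lower ones without E3.5 number 1. Of 72 named genes called, 13 fell short of 1 in size without E4.5 number 9 and 25 without the marker-positive cells. With a pseudocount of 0.1, which gave more calls in both directions, 0 fell short. Without a filter on low values 0 could fall short, since the filter only sets which genes are compared. At 5 FPKM the share of cells with Gata4 was 17.4% at E3.5 and 30.4% at E4.5. Without the marker-positive cells the sign changed for Krt18 (-1.01), Id2 (-0.25), Esrrb (0.058) and Tet1 (0.21), and within them for Socs3 (0.12). Of the named genes not called, Pou5f1 (0.28) and Sox17 (-0.19) also changed sign without the marker-positive cells. Of 1795 values of 75 named genes under these alternatives, 1766 kept their sign within 1 SD over cells. That SD was often larger than the call size of 1 (for Krt18 2.48 at E3.5 and 3.44 at E4.5). Staying within it therefore says little about whether a call holds. The count of 1766 also includes values under other filters on low values, which cannot move a difference. Another 22 kept their sign but moved further, and these 7 changed sign. The cause of these changes was not tested. No paired analysis was possible because title numbers are not explained and carry no pairing of cells between stages.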

Other observations

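Short noncoding RNAs, looked at after their values were seen, held some of the largest differences. All of these genes are shorter than a typical fragment, so their FPKM are imprecise. Over all genes tested 5.87% were higher and 4.68% lower, and without the marker-positive cells 7.27% and 7.25%. Of 12 mitochondrial tRNA genes tested, 9 were lower and 0 higher at E4.5 (median -2.35), and the counts were 8 lower without the marker-positive cells and 8 within them. mt-Ti had a median of 5180 FPKM at E3.5 (0 to 19323) and 835 at E4.5 (0 to 8142), a difference of -4.08, and mt-Tv differed by -3.81. Another 9 mitochondrial tRNA genes were listed at 0 in all cells, and mt-Tr was too low to be tested. Of 102 small nucleolar RNA genes tested, 26 were lower and 9 higher (median -0.17), with 35 lower and 16 higher without the marker-positive cells. Within the marker-positive cells 30 were lower and 23 higher, beside 8.24% and 8.22% of all genes tested.

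Hairpins of the miR-290 cluster, whose microRNAs are abundant in pluripotent cells and early trophoblast, differed the other way. Of 55 microRNA genes tested, this cluster included, 18 were higher and 11 lower, beside 5.87% and 4.68% over all genes. Calls in both directions were thus common among these short genes and not particular to the cluster. Mir295 was at 1 FPKM or more in 11 E3.5 and 18 E4.5 cells (medians 0 and 1476 FPKM, difference 4.15), Mir293 in 9 and 18 cells (3.92) and Mir294 in 9 and 16 cells (3.30). Mir291b differed by 1.68, Mir291a by 0.89 and Mir292 by 0.36. Within the marker-positive cells the differences of Mir295, Mir293 and Mir294 were 5.06, 5.26 and 4.75, and without them 3.28, 2.64 and 1.71. A protocol of this kind reads fragments of longer transcripts that cover a hairpin and cannot tell them from the mature microRNA.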
